A study of Mus musculus with 6 samples.

Results

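Genes of inflammatory and necrotic cell death were followed in the mouse line IEC 4.1, labelled as intestinal epithelium: the inflammatory caspases Casp1, Casp4 and Casp12, the gasdermins Gsdmd and Gsdme, and the necroptosis genes Zbp1, Ripk3 and Mlkl. They were chosen by symbol, and all 8 had a row among the 14701 genes of the deposited tables. The 6 samples were 3 untreated controls (replicates 2, 3 and 4) and 3 samples (replicates 1, 2 and 4) kept for 6 h with 10 ng/ml of interferon-gamma, with RNA from the whole culture in each library. No transgene or deletion is named for either group, and the labels do not say whether replicates were separate cultures. The p-values then measure only the spread between these samples, which may be technical.

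Inflammatory caspases are proteases that are switched on when microbial products reach the cytosol. Of them, Casp1 and Casp4 cut Gsdmd, and the freed amino-terminal part of Gsdmd forms pores in the plasma membrane, a lytic death called pyroptosis. Gsdme is a pore former of the same family that is opened by cleavage during apoptosis. Necroptosis is a lytic death that does not need caspases: Zbp1, a sensor of Z-form nucleic acids, or Ripk1 engages the kinase Ripk3, and Ripk3 phosphorylates the pseudokinase Mlkl, which then breaches the membrane. Ripk1, Ripk3, Zbp1 and Ticam1 bind one another through a short stretch called the RIP homotypic interaction motif. In the gut these routes expel or kill infected epithelial cells, and many of their genes are known interferon targets.

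Library totals were 17490689 to 18678543 estimated counts. Of the 14 epithelial marker genes looked for, 10 had a row, and apart from Muc1 none passed 0.533 CPM (counts scaled to a common library size) in any library, so the labelled epithelial identity was not borne out by Epcam (no row), Cdh1 or the keratins. The summed CPM of the 10 was 2.61 to 2.98 across the controls and 8.96 to 9.30 after treatment, and Muc1 alone rose, from 1.89 to 8.42 CPM. Of 9 tested mesenchymal markers, 2 rose and 6 fell, with a median log2 fold change of -0.28. The shares over all tested genes were 19.9% and 18.1%, with a median of 0.01. The most abundant, Vim and Col1a1, stood at 2386 and 1656 CPM in controls and 2946 and 1321 CPM after treatment. Leukocytes express several of the 8 genes. Of 15 leukocyte markers, 8 had a row, with a summed level between 23.0 and 26.2 CPM before treatment and between 20.5 and 21.97 CPM after it, most of it Cd14. The part of these markers in the results was not tested. Cd68, Csf1r and Lyz2 had totals of 97, 32 and 7 counts in controls and 85, 16 and 9 in treated libraries. Ptprc, Itgax, Spi1 and Fcer1g were at 0 in every treated library and at totals of 1 or 2 counts in the controls. Genes without any control read are not listed, so the reverse pattern could not be seen. In such bulk samples a change in the number of cells of a type and a change of RNA per cell cannot be told apart.

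Of the 8 genes, 6 rose with interferon-gamma, Gsdme fell and Ripk3 was too low to be tested (edgeR quasi-likelihood test, Benjamini-Hochberg adjusted p under 0.05 over 11423 genes). Over all tested genes 19.9% rose and 18.1% fell, and the median log2 fold change was 0.01. Casp1 and Zbp1 had fewer than 10 counts in each control and passed the low-count filter only through the treated libraries, so a test of these genes could come out in 1 direction only. Control and treated libraries did not overlap for any of the 7 tested genes. The share of such genes over all tested genes was not computed. The groups also stayed apart for the marker Cd14, which was not called (edgeR adjusted p = 0.0961), so separation alone says little. All 48 counts of the 8 genes were whole numbers, while 6.8% to 7.37% of the counts of a library were not, so no division of reads with a similar gene was seen for them.

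**Figure D1:**
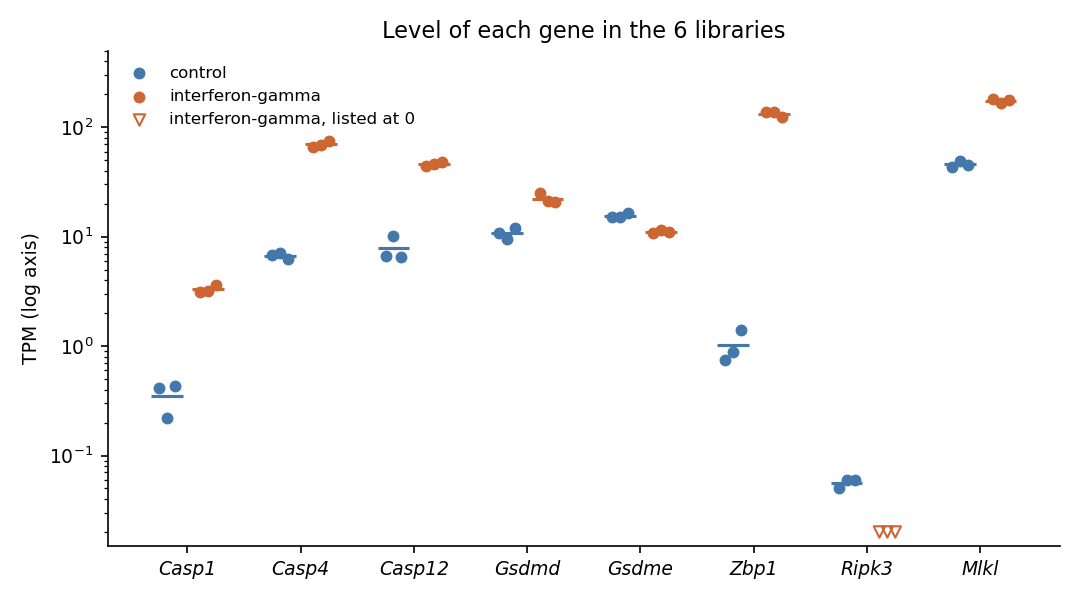
Level of the 8 genes in TPM (transcript level scaled for gene length and library, log axis), with 1 point per library and a line at the mean of the 3 libraries of a group. Zbp1 moved farthest, from a mean of 1.01 to 133 TPM, Gsdme was lower in the treated libraries, and the open triangles, drawn at an arbitrary height, mark Ripk3 listed at 0.

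On the per-length TPM scale, the order of mean levels in controls was Mlkl (46.0 ± 3.36 TPM, mean ± SD, n = 3), Gsdme (15.5 ± 0.855), Gsdmd (10.7 ± 1.18), Casp12 (7.82 ± 2.06), Casp4 (6.72 ± 0.412), Zbp1 (1.01 ± 0.350), Casp1 (0.353 ± 0.116) and Ripk3 (0.0567 ± 0.00577). Neighbours in this order overlapped between Gsdmd and Casp12 and between Casp12 and Casp4. In treated libraries the order was Mlkl (175 ± 6.04 TPM), Zbp1 (133 ± 8.08), Casp4 (70.1 ± 4.09), Casp12 (46.1 ± 2.13), Gsdmd (22.3 ± 2.32), Gsdme (11.2 ± 0.404) and Casp1 (3.31 ± 0.295), with Ripk3 listed at 0, and no neighbours overlapped. The executioner Mlkl was thus the most abundant of the 8 in both groups, while Zbp1 moved from the sixth place to the second and Gsdme from the second to the sixth.

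The 3 inflammatory caspases lie side by side on chromosome 9 of GRCm38.p6 and on the same strand: Casp1 (NCBI Gene 12362) at 5298517 to 5307281, Casp4 (12363) at 5308849 to 5336791 and Casp12 (12364) at 5345442 to 5373034. The gaps are 1.57 kb and 8.65 kb, and RefSeq places no other gene within these 74.5 kb. Promoter windows from RefSeq, 250 bases before to 50 after a start, were at hand for 6 of the 8 genes (not Gsdmd or Zbp1). The windows of the 3 caspases are printed because these neighbours rose together. They were searched on both strands for the core of the interferon-stimulated response element, GAAANNGAAA, and of the gamma-activated site, TTCNNNGAA, which reads the same on both strands. Capitals mark matches, each line runs 5′ to 3′ on the plus strand, and for Casp4 the first of 2 windows that start 11 bases apart is shown.
Casp1 (chr9:5298267-5298566): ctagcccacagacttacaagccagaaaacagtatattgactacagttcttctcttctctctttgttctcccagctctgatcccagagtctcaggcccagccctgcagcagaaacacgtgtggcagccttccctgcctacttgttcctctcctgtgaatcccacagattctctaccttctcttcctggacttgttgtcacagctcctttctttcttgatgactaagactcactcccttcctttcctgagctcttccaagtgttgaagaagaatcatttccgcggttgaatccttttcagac
Casp4 (chr9:5308599-5308898): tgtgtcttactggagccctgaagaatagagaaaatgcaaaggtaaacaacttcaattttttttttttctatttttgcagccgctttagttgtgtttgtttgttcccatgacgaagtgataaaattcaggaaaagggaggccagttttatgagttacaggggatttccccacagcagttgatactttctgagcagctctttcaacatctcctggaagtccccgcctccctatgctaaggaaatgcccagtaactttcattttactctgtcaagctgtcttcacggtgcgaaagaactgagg
Casp12 (chr9:5345226-5345525): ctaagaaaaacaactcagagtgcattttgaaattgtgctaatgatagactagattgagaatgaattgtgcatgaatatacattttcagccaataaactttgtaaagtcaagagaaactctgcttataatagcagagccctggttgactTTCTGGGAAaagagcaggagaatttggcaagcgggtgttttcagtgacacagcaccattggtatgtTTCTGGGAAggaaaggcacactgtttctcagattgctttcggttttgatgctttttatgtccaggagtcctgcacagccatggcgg

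The only matches in the 7 windows of the 6 genes were 2 copies of TTCTGGGAA before Casp12, whose first bases, at 5345374 and 5345440, lie 102 and 36 bases upstream of the transcript start that the window is built on. That start, 5345476, lies 34 bases inside the RefSeq gene, and against the gene start the matches begin 68 and 2 bases upstream, so the second runs across it. The gamma-activated core was present in 8.30% of 32851 RefSeq promoter windows and present at least 2 times in 0.457% of them, and the response element core was present in 3.44%. A match describes these letters and is no evidence of binding, and elements outside these windows were not searched.

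Casp4, the mouse sensor of cytosolic lipopolysaccharide also named Casp11, rose about 11-fold. It had 90, 93 and 79 counts in control replicates 2, 3 and 4 and 854, 940 and 941 counts in treated replicates 1, 2 and 4. The treated libraries were close together and far above every control. The log2 rise in the edgeR fit was 3.47 ± 0.098 (± SE from the replicates' log2 CPM, n = 3 per group, edgeR adjusted p = 5.99e-18).

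Casp12, a caspase of the same family that is tied to the endoplasmic reticulum, had 187, 251 and 173 counts in controls and 1148, 1243 and 1219 in treated libraries. Control replicate 3 stood above the other controls, yet far below the treated libraries. The log2 rise was 2.65 ± 0.172, a fold of 6.29 (adjusted p = 1.12e-15 in edgeR).

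Casp1, the protease that matures interleukin-1 beta and interleukin-18 and also cuts Gsdmd, was much scarcer. It had 6, 3 and 6 counts in controls and 44, 48 and 51 in treated libraries, and on the TPM scale its treated level stayed below the untreated level of Casp4. The log2 rise was 3.31 ± 0.237 (edgeR adjusted p = 6.95e-09). Casp1 passed the low-count filter only through the treated libraries, so this test could not have shown a fall. From the totals of 15 and 143 counts, the depth-scaled ratio was 10.1, with an exact 95% binomial interval of 5.95 to 18.6 that covers counting error only.

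Beyond the caspase locus the nearest tested genes on each side did not share these rises. The nearest lay 912 kb before and 1556 kb after it. Of the 5 tested genes on each side, 2 rose and 4 fell, against the 19.9% and 18.1% over all tested genes. Dync2h1, a dynein heavy chain of cilia and the nearest after the locus, rose by 0.36 on the log2 scale (edgeR adjusted p = 0.00511). The matrix metalloproteinases Mmp13, Mmp3 and Mmp10, farther along the same side, fell by 1.16, 0.87 and 1.58 on the log2 scale.

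**Figure D2:**
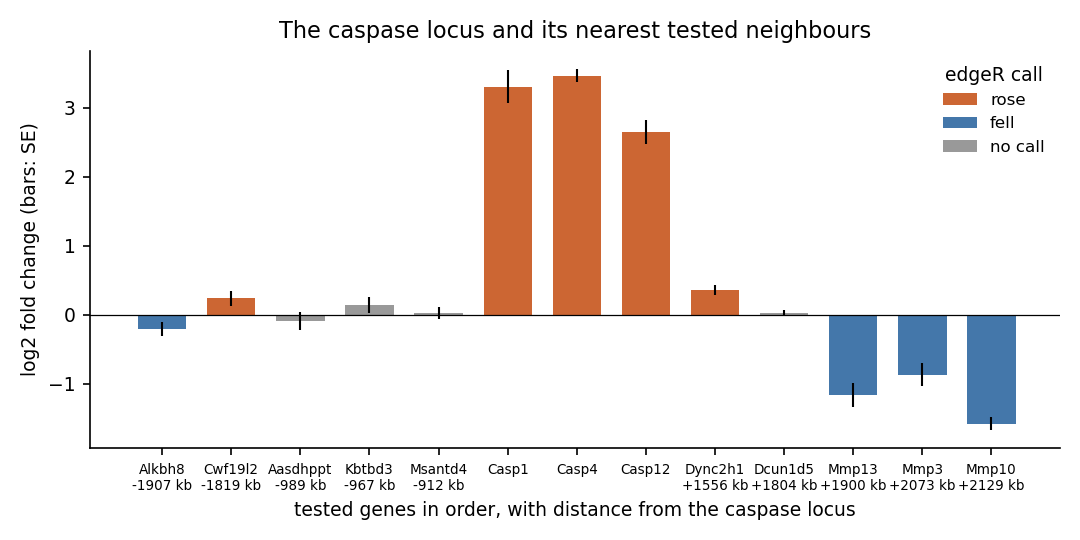
Log2 fold change, interferon-gamma against control, of the 3 caspases and the 5 nearest tested genes on each side, in chromosome order, with distances from the locus in kilobases and bars of ± SE (n = 3 libraries per group). The 3 caspases stand between 2.65 and 3.47, while their neighbours lie between -1.58 and 0.36.

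Casp4 and Casp12 stood at like levels in controls and apart after treatment. The ratio of Casp4 to Casp12 in TPM was 1.01, 0.698 and 0.962 in controls and 1.51, 1.503 and 1.54 in treated libraries. Every treated ratio was above every control ratio, and the change was 0.79 on the log2 scale (exact permutation test, two-sided p = 0.10, the smallest that 3 against 3 allows, and 0.13 adjusted over the 4 ratios compared). The ratio of Casp4 to Casp1 was 16.5, 32.3 and 14.6 in controls and 21.4, 21.7 and 20.4 in treated libraries, which overlap. Its change of 0.09 (exact permutation p = 1.00) turned to -0.04 without control replicate 2 and to -0.12 without control replicate 4. The 4 pairs were picked after the levels were seen.

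The gasdermins moved in opposite directions. Gsdmd (NCBI Gene 69146, chromosome 15, 75862144 to 75867408), the pore former of pyroptosis, had 184, 153 and 190 counts in controls and 411, 370 and 343 in treated libraries. Each treated value exceeded each control value. Its log2 rise was 1.18 ± 0.109, a fold of 2.27 (edgeR adjusted p = 1.71e-09), and it was not called above a fold of 2 (edgeR glmTreat, adjusted p = 0.262).

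Gsdme (NCBI Gene 54722, chromosome 6, 50207401 to 50263857), the gasdermin cleaved during apoptosis, had 346, 324 and 358 counts in controls and 237, 274 and 239 in treated libraries. All treated libraries lay under all controls. The deposited tables list this gene on the plus strand and GENCODE M21 on the minus strand, a disagreement seen for 1670 of 14201 genes compared and for no other of the 8. If reads were counted by that strand, which the labels do not say, the counts of Gsdme and its ratio to Gsdmd would not measure its sense transcript. It fell by 0.37 ± 0.068 on the log2 scale, to 77.6% of the control level (edgeR adjusted p = 0.00151), and it was not called beyond a fold of 1.5 (edgeR glmTreat, adjusted p = 1.00). The ratio of Gsdmd to Gsdme in TPM went from 0.721, 0.633 and 0.719 in controls to 2.29, 1.81 and 1.90 in treated libraries, so Gsdme was the more abundant gasdermin in every control and Gsdmd in every treated library. That change was 1.53 on the log2 scale (exact permutation p = 0.10, and 0.13 adjusted over the 4 ratios). Of the 4 other genes annotated with a gasdermin pore domain in the deposited tables, Gsdma, Gsdma3, Gsdmc2 and Gsdmc4, none was tested, and none passed 0.275 CPM in any library.

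**Figure D3:**
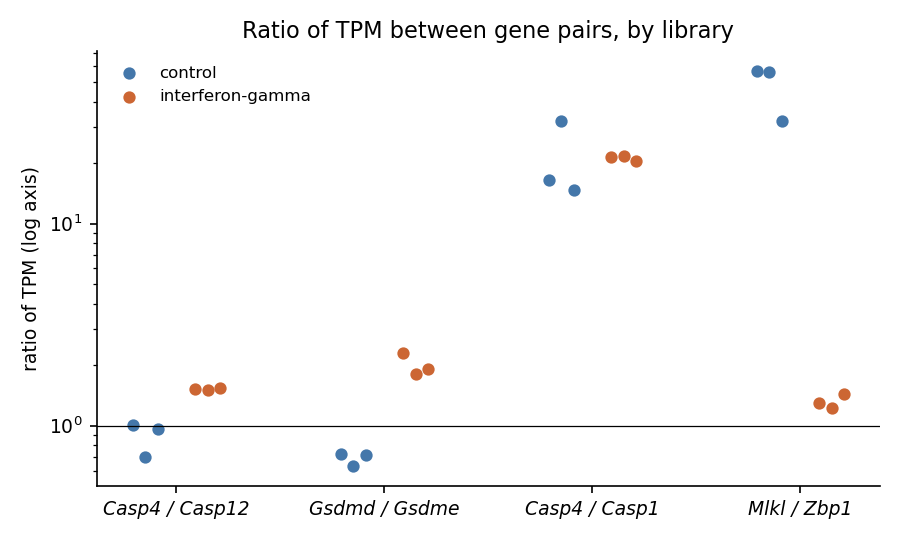
Ratio of TPM between pairs of the 8 genes (log axis), with 1 point per library and a line at a ratio of 1. Gsdmd over Gsdme passed from below 1 in the controls to above 1 in the treated libraries, and Mlkl over Zbp1 dropped from between 32.2 and 57.2 to between 1.22 and 1.44.

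Zbp1 (NCBI Gene 58203, chromosome 2, 173206612 to 173218959) was the member that changed most. It had 8, 5 and 9 counts in controls and 1393, 1424 and 1262 in treated libraries. From near absence it came, in TPM, to stand above each of the others except Mlkl. The log2 rise was 7.60 ± 0.196 (edgeR adjusted p = 8.52e-22), the place 24 in size among 11423 tested genes. Zbp1 passed the low-count filter only through the treated libraries, so neither this p-value nor this place could have shown a fall. The depth-scaled ratio of totals, 22 against 4079 counts, was 197, with an exact 95% binomial interval of 130 to 315 for counting error only. In TPM, which depends on the transcripts that reads were assigned to, the ratio of means was 132.

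Mlkl (NCBI Gene 74568, chromosome 8, 111311255 to 111338479), the executioner of necroptosis, was already well expressed. It had 903, 979 and 914 counts in controls and 3645, 3632 and 3585 in treated libraries. Libraries of a group lay within a narrow range, and the groups were far apart. The log2 rise was 2.05 ± 0.045, a fold of 4.14 (edgeR adjusted p = 7.12e-18).

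Ripk3 (NCBI Gene 56532, chromosome 14, 55784995 to 55788857), the kinase between them, was close to absent. It had 1 count in each control and 0 in each treated library. Over the 3 treated libraries, 0 counts allow a level of up to 0.0565 CPM, for counting error only, and the 3 counts of the controls equal 0.0531 CPM, so both groups sat at or under the floor and no fold is given. In the same treated libraries Mlkl stood at 175 ± 6.04 TPM and Zbp1 at 133 ± 8.08 TPM (SD, n = 3). RefSeq lists a long noncoding RNA, Gm32092, across the Ripk3 locus that has no row in these tables. Nothing in the labels says whether reads were counted by strand.

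Genes that carry the RIP homotypic interaction motif in the deposited annotation numbered 4. Besides Zbp1 and Ripk3 they were Ripk1, which rose from 65.3 to 134 CPM (log2 1.04, edgeR adjusted p = 1.01e-12), and Ticam1, the adaptor of Tlr3, which had a log2 fold change of 0.22 (edgeR adjusted p = 0.0633). The call of Ticam1 was gained without control replicate 4 (log2 0.28, edgeR adjusted p = 0.0465).

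Genes upstream of necroptosis and its brakes numbered 26, of which 25 were tested. Of these 13 rose and 3 fell, beside 19.9% and 18.1% over all tested genes, and their median log2 fold change was 0.25, beside 0.01. Tlr3, the endosomal receptor for double-stranded RNA, rose from 3.27 to 34.4 CPM (log2 3.39, edgeR adjusted p = 3.66e-16). Tnfrsf1a, the main receptor for tumour necrosis factor, rose from 92.9 to 234 CPM. Adar, an RNA editor that shares the Z-alpha domain of Zbp1 and restrains it, rose from 92.8 to 204 CPM (log2 1.14). Tnf itself was too low to be tested, with totals of 6 counts in controls and 10 in treated libraries.

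Among the other caspases, Casp6 rose from 15.4 to 22.5 CPM (log2 0.54, edgeR adjusted p = 6.61e-06). Casp8, which drives apoptosis and holds necroptosis in check, rose from 43.9 to 51.1 CPM (log2 0.22, edgeR adjusted p = 0.00501), a call lost on total counts (edgeR adjusted p = 0.0511). Casp2 had a log2 fold change of 0.08 (edgeR adjusted p = 0.36).

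Few sensors above the inflammatory caspases were expressed. Of 18 inflammasome sensors and adaptors looked for, 11 had a row and 6 were tested, with 2 risen, 1 fallen and a median log2 fold change of 0.01, counts too few to set apart from the 19.9% and 18.1% over all tested genes. Txnip, a binding partner of thioredoxin and of Nlrp3, rose from 17.7 to 62.2 CPM (log2 1.81, edgeR adjusted p = 8.86e-16). Naip2, a receptor for bacterial secretion system rods, rose by 0.43 on the log2 scale, with counts that were partly not whole. Nek7, a kinase needed by Nlrp3, fell from 147 to 114 CPM (log2 -0.37), and Dpp9, an inhibitor of Nlrp1, had log2 -0.10 (edgeR adjusted p = 0.163), a call gained with upper-quartile (0.0312) or total-count scaling (0.0177). Nlrp3 was too low to be tested, with totals of 15 counts in controls and 9 in treated libraries. The DNA sensor Aim2 had totals of 31 and 28 counts (log2 -0.06, edgeR adjusted p = 0.925), with a sign that turned without control replicate 4 or treated replicates 1 or 4. The adaptor Pycard and Nlrc4 had no row. No gene in these tables was at 0 in all 3 controls, so genes without any control read are not listed, and one switched on from nothing would not be seen.

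Among substrates and release factors, 2 of 5 were tested and both rose. These are too few to set apart from the 19.9% of rises over all tested genes. Ninj1, which ruptures the plasma membrane after pores have formed, rose from 42.4 to 80.3 CPM (log2 0.92, edgeR adjusted p = 2.33e-11). Il33, an alarmin that leaves damaged cells, rose from 7.39 to 12.7 CPM (log2 0.78, edgeR adjusted p = 0.000443). Il18 was too low to be tested, with totals of 17 and 33 counts, and Il1b had no row.

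Membrane repair by ESCRT proteins sheds damaged patches and counters both kinds of pore. Of 14 tested genes, 4 rose and none fell, a share of rises near that over all genes, with a median log2 fold change of 0.04. Chmp2b rose from 41.6 to 62.8 CPM (log2 0.59, edgeR adjusted p = 2.97e-06) and Chmp4b from 154 to 204 CPM (log2 0.41). Chmp5 had log2 0.23, a call lost on total counts (edgeR adjusted p = 0.0539), and Chmp2a had log2 0.16 (edgeR adjusted p = 0.0346), a call lost when any library other than treated replicate 4 was left out (edgeR adjusted p = 0.0651 to 0.159).

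Over all 90 symbols listed around the 8 genes, including 11 transcription factors, 64 were tested, 32 rose and 6 fell, beside 19.9% and 18.1% over all tested genes. The falls numbered 3 without treated replicate 4. Among the 11 transcription factors, all tested, 8 rose and 2 fell, beside the same shares. Stat2, with partly shared reads, rose by 3.76, Irf1 by 3.58 and Stat3 by 2.47 on the log2 scale. Irf2, a known activator of Gsdmd, went from 21.2 to 45.0 CPM (log2 1.08, edgeR adjusted p = 1.89e-11), and was picked with its values in view.

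**Figure D4:**
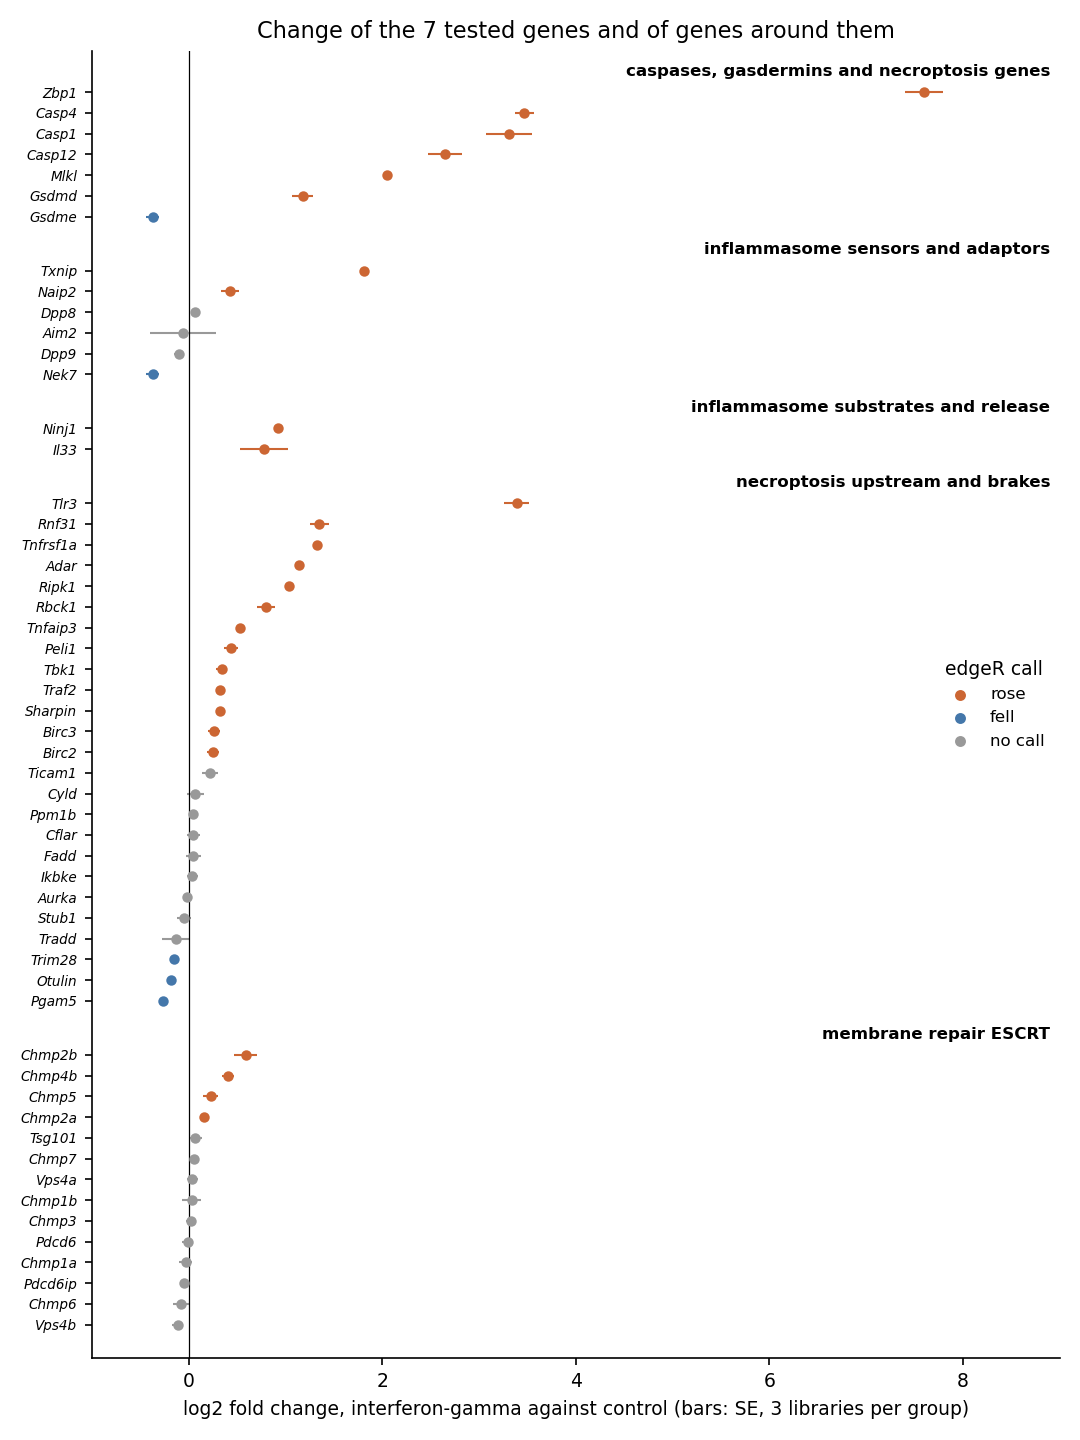
Log2 fold change, interferon-gamma against control, of the 7 tested genes and of the tested genes of 4 lists around them, with bars of ± SE (n = 3 libraries per group). Orange points rose, blue points fell and grey points passed no threshold. Zbp1, at 7.60, lies farthest to the right, and Tlr3, at 3.39, leads the genes upstream of necroptosis.

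The genes nearest in pattern to each of the 7 were found by the Euclidean distance between log2 CPM values, centred on their mean over the 6 libraries. With 2 groups this measure mostly reflects the size of the change, after a prior count of 2 that draws low values together. The genes listed for Casp1 thus differ from its log2 rise of 3.31. Sp140 rose by 2.92, and Apol11b by 4.34 from 0.053 CPM in controls. The 2 nearest were Il6 (distance 0.107) and Fas (0.194) for Casp4, Sp140 (0.349) and Apol11b (0.418) for Casp1, and Snx10 (0.322) and Ifih1 (0.332) for Casp12. They were Adam8 (0.149) and Plaat3 (0.175) for Gsdmd, and Taf1a (0.054) and Cdk13 (0.083) for Gsdme. For Mlkl they were Eif2ak2 (0.144) and Tmem173 (0.162), which encodes the DNA pathway adaptor STING. Zbp1 had no close neighbour: the nearest, Tap1 and Gbp3, lay at 0.662 and 0.724.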

How the data were processed

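Libraries were made from column-purified RNA for DNBSEQ sequencing, per the labels' protocols. Estimated counts of reads per gene were deposited by the authors, with TPM and FPKM beside them, per the file headers. The submitters' processing notes name the aligners HISAT and HISAT2 and the builds GRCm38.p6 and mm10 without roles, and no counter. Counts were rounded and tested with edgeR 4.0.16 (R 4.3.3): filterByExpr with a minimum count of 10, TMM scaling, glmQLFit with robust=TRUE and glmQLFTest, with Benjamini-Hochberg adjustment over 11423 genes. CPM use effective library sizes. Log2 fold changes of single genes come from the edgeR fit. Standard errors come instead from the replicates' log2 CPM (prior count 2), which draws low values together, so those of Casp1 and Zbp1 can be too small. FPKM served only to recompute ratios between genes. Genes were placed on RefSeq GRCm38.p6 by identifier (14654 of 14701 matched).

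The edgeR code was tested on simulated data. Named genes are the 8 members, up to 4 genes of smallest adjusted p per list, the 2 genes nearest in pattern to each member and the 5 tested neighbours on each side of the caspases. The members and lists were chosen with earlier results of these data known. Other genes are named as chosen after their values were seen or as too low. Some listed genes are not reported here singly, and protein sequences were not used here.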

Additional observations from a re-analysis of the deposited data

How the results depend on the processing

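The 8 genes were refitted under 12 other settings and with each of the 6 libraries left out. The 6 rises were called in every fit but glmTreat against a fold of 2, where Gsdmd, at log2 1.18, had an adjusted p of 0.262 and 5 remained, and Gsdme fell in every fit but glmTreat, where falls numbered 0 against a fold of 1.5 and 0 against a fold of 2. In glmTreat fits fewer genes pass by construction. In the filtered fits Casp1 and Zbp1 passed only through treated libraries, so their calls could not have come out as falls. Over left-out libraries the log2 change ran from 3.39 to 3.52 for Casp4, 2.53 to 2.82 for Casp12, 3.04 to 3.46 for Casp1, 1.08 to 1.23 for Gsdmd, -0.42 to -0.33 for Gsdme, 7.38 to 7.75 for Zbp1 and 2.02 to 2.08 for Mlkl. Rises among the listed pathway genes numbered 16 and 12 with glmTreat against folds of 1.5 and 2, and falls 0 and 0. Falls were 2 at a threshold of 0.01 and 3 to 6 over left-out libraries. DESeq2 called 31 rises and 6 falls among them. Replicate numbers 2 and 4 occur in both groups, but nothing says that they pair samples: deviations from the group means correlated at 0.14 for number 2 and -0.08 for number 4. With the replicate number as a block, 6 of the 8 genes rose and 1 fell, and pathway calls were 30 rises and 4 falls. That fit takes the change from numbers 2 and 4 only, since numbers 1 and 3 each occur in 1 group. Total-count scaling moved the median of all genes by -0.072 (log2), with 34.5% of calls rising against 52.4%, and upper-quartile scaling gave 38.6%. No member changed its call under either. Aim2 turned to 0.17 with the block, 0.12 without control replicate 4 and 0.11 and 0.08 without treated replicates 1 and 4, within a left-out range of -0.45 to 0.12. The causes were not tested. Ratios between genes were recomputed in CPM and FPKM and without each library, as alternatives chosen after seeing the data. FPKM and TPM of a library differ by a common factor, so FPKM could not change a ratio beyond rounding. In CPM and without each library the signs held, except for Casp4 to Casp1. That ratio changed by -0.04 without control replicate 2 and by -0.12 without control replicate 4, within -0.12 to 0.45. Ripk3 and the low counts of Casp1 and Zbp1 in controls are limited by depth.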
